A study of Mus musculus with 26 samples.

Results

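Formative stem (FS) cells, which are kept in culture for many passages, were set against epiblast-like cells (EpiLC), a passing state that embryonic stem (ES) cells cross within days. ATAC-seq reads out accessible DNA through cuts by the Tn5 transposase, and each library was deposited as a list of peaks. The comparison held 10 of the 26 mouse libraries of the series, chosen by their source labels: FS1 at passage 21 (n = 3) and FS2 at passage 29 (n = 3), both in A3XR medium, and EpiLC (n = 4). The EpiLC came from ES cells kept for 2 days in AF medium with KSR, and were the sorted fraction low in GFP. FS and EpiLC libraries lay in different sets of lists that the authors processed differently. Epiblast stem cells (EpiSCs) in AFX medium were present in both sets, as EpiSC_AFX1 (passage 14) and EpiSC_AFX2 (passage 16) in the first set, 3 libraries each, and as Rd2_AFX (passage 16, n = 2) in the Rd2 set, and served as the control for the set. ES cells of the first set in 2iL medium (passage 16, n = 3) are given beside the results. The labels state no strain, sex or treatment for these cultures, and no genotype beyond the GFP by which EpiLC were sorted. Source labels of the Rd2 set read Rd2EpiLC, Rd2AFX and, for its ES cells, Rd2GFP, without saying what Rd2 stands for. If it names a cell line, the sets differ in line as well as in processing, and the 2 cannot be told apart. FS and EpiSC_AFX are 2 lines each, so no result speaks for lines in general.

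Pluripotency runs through a naive state, held by ES cells in 2iL, a formative state in which cells gain competence for lineage choice, and a primed state, held by EpiSCs. EpiLC and FS cells are both assigned to the formative state, the first as a short-lived population and the second as a self-renewing culture. Accessible regions include promoters and enhancers, and those open in a naive cell are in part closed again at the formative and primed stages.

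Each list was cut to its strongest peaks by −log10 p, as many as the shortest list (EpiLC replicate 3) holds, and the cut lists were merged to 19752 union regions, and a region was present in a list if a peak overlapped it by 1 bp. FS only held a region when 6 of 6 FS lists and 0 of 4 EpiLC lists had a peak there, and EpiLC only held it in the reverse case. Of these separated regions, those whose share of lists was higher in the same set by at least 0.5 among EpiSCs too (EpiSC_AFX against Rd2_AFX) were marked as set effects. The rest remained, and were called EpiSC-open (at least 4 of 6 EpiSC_AFX and 2 of 2 Rd2_AFX lists), EpiSC-closed (at most 2 of 6 and 0 of 2) or mixed.

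After marking, the FS-only regions included promoters of the heat shock genes Hspa1a and Hspb8, each kept in 3 of 7 other settings. The EpiLC-only regions included promoters and flanks of zinc finger genes and the starts of Meioc, Rec8 and Kcnq1ot1. The promoters of 7 of these genes, chosen after their values were seen, are shown because the region covers the start site or lies within 1 kb of it. Each window runs from 250 bases before the start to 50 after it, so that the start is base 251, is given 5′ to 3′ on the gene's strand and comes from RefSeq (GRCm38.p6). Capitals mark matches to motifs searched on both strands: the heat shock element GAANNTTC (Hspa1a, Hspb8), KLF GGGTGTGG (the first match in Hspa1a), SOX ACAAAG (Zfp640), octamer ATTTGCAT (Gm14124, Gm14139, Gm50598) and ZIC CAGCAGG (Kcnq1ot1). The windows lie at chr17:34972107-34972406 minus (Hspa1a), chr5:116422815-116423114 minus (Hspb8), chr13:66680754-66681053 minus (Zfp640), chr2:150257267-150257566 plus (Gm14124), chr2:150181505-150181804 plus (Gm14139), chr5:109466852-109467151 plus (Gm50598) and chr7:143296498-143296797 minus (Kcnq1ot1).
Hspa1a: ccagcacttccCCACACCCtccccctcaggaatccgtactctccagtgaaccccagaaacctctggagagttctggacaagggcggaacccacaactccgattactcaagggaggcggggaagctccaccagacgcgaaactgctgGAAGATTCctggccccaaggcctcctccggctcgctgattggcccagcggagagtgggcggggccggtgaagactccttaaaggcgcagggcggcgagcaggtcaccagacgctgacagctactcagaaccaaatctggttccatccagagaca
Hspb8: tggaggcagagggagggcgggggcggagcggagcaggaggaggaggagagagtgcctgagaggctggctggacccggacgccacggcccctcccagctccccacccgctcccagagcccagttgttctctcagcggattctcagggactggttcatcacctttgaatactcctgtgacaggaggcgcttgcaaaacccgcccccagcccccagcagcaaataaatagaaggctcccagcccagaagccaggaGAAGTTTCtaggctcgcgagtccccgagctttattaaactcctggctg
Zfp640: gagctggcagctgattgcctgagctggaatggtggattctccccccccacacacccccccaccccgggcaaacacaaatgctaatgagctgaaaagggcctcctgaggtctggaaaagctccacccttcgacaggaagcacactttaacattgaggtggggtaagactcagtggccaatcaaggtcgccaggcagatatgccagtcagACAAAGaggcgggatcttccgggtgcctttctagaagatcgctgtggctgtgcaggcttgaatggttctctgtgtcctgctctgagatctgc
Gm14124: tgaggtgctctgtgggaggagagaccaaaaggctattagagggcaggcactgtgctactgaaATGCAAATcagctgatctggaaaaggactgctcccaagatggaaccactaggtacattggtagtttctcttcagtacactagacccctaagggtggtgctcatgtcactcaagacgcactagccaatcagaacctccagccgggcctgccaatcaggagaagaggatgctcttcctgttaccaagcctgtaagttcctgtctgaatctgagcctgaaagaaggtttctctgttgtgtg
Gm14139: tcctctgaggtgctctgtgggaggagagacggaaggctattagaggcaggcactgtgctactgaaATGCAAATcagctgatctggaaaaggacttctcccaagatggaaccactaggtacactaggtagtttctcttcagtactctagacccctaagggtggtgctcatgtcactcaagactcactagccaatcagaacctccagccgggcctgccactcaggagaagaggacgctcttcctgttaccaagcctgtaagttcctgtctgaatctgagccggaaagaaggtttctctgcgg
Gm50598: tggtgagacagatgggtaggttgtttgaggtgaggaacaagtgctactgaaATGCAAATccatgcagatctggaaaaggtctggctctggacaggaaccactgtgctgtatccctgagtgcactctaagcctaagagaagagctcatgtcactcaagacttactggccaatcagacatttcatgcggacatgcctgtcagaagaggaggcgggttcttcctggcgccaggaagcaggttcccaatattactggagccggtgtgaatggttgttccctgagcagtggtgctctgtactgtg
Kcnq1ot1: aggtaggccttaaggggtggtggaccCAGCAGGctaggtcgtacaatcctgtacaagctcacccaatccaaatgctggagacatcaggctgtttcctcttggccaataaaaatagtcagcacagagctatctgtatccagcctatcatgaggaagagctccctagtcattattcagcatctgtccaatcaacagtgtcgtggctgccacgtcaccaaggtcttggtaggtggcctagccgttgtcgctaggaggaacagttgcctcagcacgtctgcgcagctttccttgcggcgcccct

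Few regions parted every FS list from every EpiLC list, and most FS-only regions were marked as set effects. FS only held 335 regions, 1.7% of all union regions, and EpiLC only held 150, or 0.759%. As the background of the set itself, 377 of the union regions (1.91%) had a peak in 6 of 6 EpiSC_AFX and 0 of 2 Rd2_AFX lists, and 238 (1.2%) had the reverse. The mark of a set effect fell on 251 of the 335 FS-only regions (74.9%) and on 39 of the 150 EpiLC-only regions (26%). Over all union regions, the EpiSC share was higher by at least 0.5 in the first set at 11% and in the Rd2 set at 10.5%, so the mark was several times as frequent among FS-only regions as over all regions. What remained were 84 FS-only regions (0.425% of all) and 111 EpiLC-only regions (0.562%). By contrast, 1553 regions were held by all 10 lists, and 76.7% of those with a placed start site were within 1 kb of one.

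**Figure D1:**
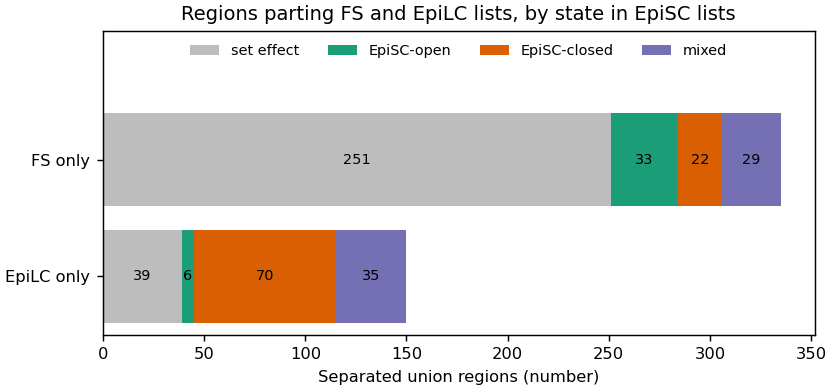
Number of separated union regions (horizontal axis) for regions held by FS only and by EpiLC only, split by their state in the EpiSC lists of both sets. Of the FS-only regions 251 are set effects, whereas of the EpiLC-only regions 70 are EpiSC-closed and 39 are set effects.

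The classes rest on the EpiSC lists that the marking used, so their counts are a description. Of the 84 remaining FS-only regions, 33 were EpiSC-open, 22 EpiSC-closed and 29 mixed. Of the 111 remaining EpiLC-only regions, 6 were EpiSC-open, 70 EpiSC-closed and 35 mixed. Over all union regions, 18.9% met the definition of EpiSC-open and 48.0% that of EpiSC-closed. Of all 150 EpiLC-only regions 46.7% were EpiSC-closed, near that background, and 4% EpiSC-open, while of all 335 FS-only regions 6.57% were EpiSC-closed and 9.85% EpiSC-open. No region could be called singly: Fisher's exact test, two-sided, called 0 of 19752 regions at an adjusted p under 0.05 and 1329 at an unadjusted p under 0.05, with a smallest adjusted p of 0.194. With 6 against 4 libraries the smallest unadjusted exact p is 0.00476, which the 485 separated regions reach. An exact test of the interaction of cell type and set, permuting libraries within each set, called 0 of the 12408 regions with a peak in at least 3 lists, and 515 (4.15%) had an unadjusted p under 0.05. Its smallest adjusted p was 0.895. The named regions below are therefore a description of these 10 lists. The labels do not say whether the libraries of a group came from separate cultures, and p-values measure only the spread between these libraries. The titles of the EpiLC libraries carry a number with a first and a second part, the first shared by replicates 1 and 2 and by replicates 3 and 4, and the second shared by the shorter lists, replicates 1 and 3. What the parts stand for is not stated, and if a shared first part marks 1 culture, EpiLC would be 2 samples and not 4.

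**Figure D2:**
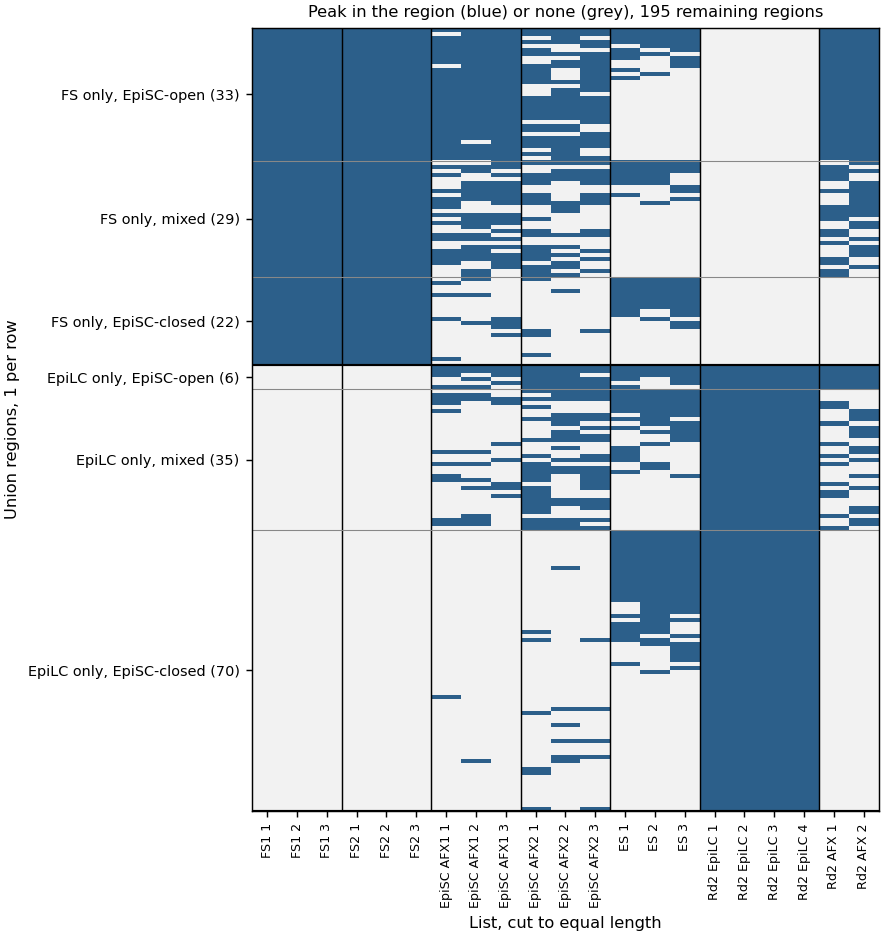
Presence (blue) or absence (grey) of a peak in each list cut to equal length (columns), for the 195 remaining regions (rows), ordered by direction, EpiSC class and ES lists. The FS and EpiLC columns are fixed by the choice of regions, and the EpiSC columns by the class. In the ES columns, blue fills 27 rows of the EpiLC-only part in all 3 lists.

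Absence from an equal-length list was often a peak below the cut of that list, called weaker here. The cut fell at a −log10 p of 9.32 in FS1 replicate 3 and of 4.16 in EpiLC replicate 3. A weaker peak is thus not shown to be weaker than in the other cell type. In the EpiLC lists as deposited, 20 of the 84 remaining FS-only regions had no peak at all. The 4 EpiLC lists held a weaker peak in 15, 60, 0 and 58 of the 84. The 0 was fixed in advance, as EpiLC replicate 3 set the cut and has no peaks below it. The list with 15 had 10563 deposited peaks, against 23608 and 26045 in those with 60 and 58. In the FS lists as deposited, 31 of the 111 remaining EpiLC-only regions had no peak. FS1 lists, of 23883 to 31263 peaks, held weaker peaks in 65, 53 and 73 of the 111, and FS2 lists, of 11796 to 14147 peaks, in 27, 16 and 17. Rd2_AFX lists held a peak at 80 of all 335 FS-only regions and at 62 of the 84 that remained, a share raised by the marking itself, which used these lists. The EpiSC-closed class was also judged at equal length. Only 4 of its 22 FS-only and 18 of its 70 EpiLC-only regions had no peak in any deposited EpiSC_AFX list.

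Among FS-only regions, heat shock promoters stood in the list. Of the 84 remaining regions, 3 had a nearest gene with an Hsp symbol (3.57%), against 31 of the 19752 union regions (0.157%) and 0 of the 251 FS-only set effects. This family was picked after the regions were seen, and no test was made of it. Hspa1a, which encodes the inducible HSP70 chaperone, had a region at its start (chr17:34971897-34972751) at percentile 85.9, 74.4 and 84.2 of −log10 p in the 3 deposited FS1 lists and at 61.8, 59.4 and 96.1 in FS2. In the deposited EpiLC lists it was at 29.7 and 9.4 in EpiLC replicates 2 and 4 and absent in the other pair. Of that pair, replicate 3 could not hold it, as its list ends at the cut. At equal length, 2 of 6 EpiSC_AFX, 0 of 2 Rd2_AFX and 1 of 3 ES lists had the peak, although all 8 of these EpiSC lists as deposited had it, so there it was missing only among the stronger peaks. A percentile ranks a peak within its own list, and as lists differ in length and set, it is no level that can be compared between libraries.

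Hspb8, a small heat shock protein, had its region over the start (chr5:116422708-116423191) at percentile 81.6, 86.4 and 85.6 in FS1 and at 82.7, 48.9 and 52.9 in FS2. No deposited EpiLC list held it at any rank. As deposited, it was present in 6 of 6 EpiSC_AFX lists and 1 of 2 Rd2_AFX lists, a difference that meets the mark of a set effect. If any excess in the first set were marked, the regions at Hspa1a and Hspb8 would both be set effects. Hspa1b, mixed in class, had a region at chr17:34959103-34959787 with percentiles of 63.5 to 91.8 in FS and 6.1 and 19.4 in EpiLC replicates 2 and 4. Hspa1b is a near-identical copy of Hspa1a, so reads may be shared between the pair, and the values of both are uncertain. The heat shock match in the Hspa1a window ended 97 bases before the start, and that in Hspb8 ran from base 253 to base 260 of its window. Such a match was present in 5 of the 38 promoter windows under remaining FS-only regions (13.2%), against 7.86% of all 32851 promoters and 5.23% of the 10201 promoters under any union region. Of the 5 windows, 3 are those of Hspa1a, Hspb8 and Hspa1b, which had led to the search for this motif. Without genes of an Hsp symbol, 2 of 34 windows (5.88%) held a match, near the background. Under remaining EpiLC-only regions it was present in 1 of 55 windows (1.82%).

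The 8 highest-ranked EpiSC-open regions among FS-only regions had peaks in both kinds of EpiSC list. Of the 3 deposited EpiLC lists that run below the cut, 1 to 3 held a weaker peak at each. The first lay at the start of Zfp385a, a zinc finger gene, at chr15:103334149-103334578. Its percentiles were 98.8, 99.3 and 97.1 in FS1, 96.1, 92.0 and 82.4 in FS2, and 8.8, 33 and 59 in EpiLC replicates 1, 2 and 4. EpiLC replicate 3 could hold no peak there, as its list ends at the cut. The region 7.24 kb from Nr4a1, an immediate-early nuclear receptor gene (chr15:101246240-101246663), was also in 3 of 3 ES lists, with percentiles of 80.7 to 98.6 in FS and 18.4 to 68.5 in the 3 EpiLC lists that held it. The others were at Ccdc134, Cd40 (a tumour necrosis factor receptor family member), Slc2a6 (a sugar transporter family member), Col2a1 (type II collagen), H2-Q7 (a class Ib histocompatibility gene) and 12.7 kb from Hhipl1. Each was in 4 to 6 of the EpiSC_AFX lists and in both Rd2_AFX lists, and only the regions at Ccdc134 and Col2a1 had ES peaks, in 2 and 1 lists. H2-Q7 belongs to a family of close copies, so its value is uncertain too.

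Of the 8 highest-ranked EpiSC-closed FS-only regions (chromosome Y left out), 7 lay outside protein-coding genes, at 4.56 to 87.7 kb. The first, 87.7 kb from A430005L14Rik (chr4:153868968-153869503), was at percentiles of 95.6 to 98.9 in the 6 FS lists, was absent from all deposited EpiLC, EpiSC_AFX and Rd2_AFX lists, and was in 2 of 3 ES lists. The second, 51.2 kb from Lmntd1 (chr6:145337650-145338131), was at percentiles of 93.5 to 98.8 in FS and in 2 of 3 ES lists. As deposited, 4 of 6 EpiSC_AFX and 0 of 2 Rd2_AFX lists held it. The others were 29.3 kb from Mis18a (a centromere factor), 36.3 kb from Oscar, 43.6 kb from Foxl1 (a forkhead factor), 15.1 kb from Pthlh (parathyroid hormone-like hormone), within Bicc1 (an RNA-binding protein) and 4.56 kb from Dcdc2a. Each of these had a peak in 2 to 6 deposited EpiSC_AFX lists and in no deposited Rd2_AFX list. At Foxl1 and Dcdc2a, 6 of 6 deposited EpiSC_AFX lists held it, so these regions were closed only at equal length. As deposited, the regions at Lmntd1, Mis18a, Oscar, Foxl1, Bicc1 and Dcdc2a meet the mark of a set effect. Over the class, 2 of 22 regions (9.09%) lay within 1 kb of a start site, against 45.3% of all placed union regions, and 13 of 22 were in an ES list. Of the 22, 12 had no peak in any deposited list of the Rd2 set, so for these the cell type and the set cannot be told apart.

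Chromosome 15 held 13 of the 84 remaining FS-only regions (15.5%), against 4.54% of all union regions, a chromosome singled out after the values were seen. Those 13 include the regions at Zfp385a, Nr4a1, Ccdc134, Col2a1, Celsr1, Acvrl1 and Scn8a. Over whole lists, chromosome 15 had 4.38%, 4.69% and 4.46% of the peaks in FS1 and 6.16%, 5.88% and 6.0% in FS2. The shares were 3.6% to 3.67% in EpiLC, 3.84% to 4.20% in EpiSC_AFX, 3.84% and 4.0% in Rd2_AFX, and 3.43% to 3.51% in ES. Every FS list was thus above every EpiLC, EpiSC_AFX, Rd2_AFX and ES list, and every FS2 list above every FS1 list. With FS1 alone against EpiLC, 24 of 268 remaining regions (8.96%) were on chromosome 15, and with FS2 alone 44 of 353 (12.5%). The part of a higher peak share on the whole chromosome in these regions was not tested.

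Among EpiLC-only regions, zinc finger gene clusters led the EpiSC-closed class. Zfp640 was the single gene with more than 2 remaining regions, and 4 lay between chr13:66642057 and chr13:66711372, 0.037 to 30.2 kb from the gene. The region at its start (chr13:66680840-66681061) was at percentiles 98.2, 97.5, 88.8 and 96.2 in EpiLC replicates 1 to 4 and absent from all deposited FS, EpiSC_AFX and Rd2_AFX lists, while 3 of 3 ES lists held it. The regions 17.2 kb and 30.2 kb away had percentiles of 94.7 to 99.6 and 90 to 98.9, with the same ES peaks and no peak in any deposited FS list. The fourth, 27.6 kb away, was at 46.1 to 90.1 and in 1 of 3 ES lists. Nearby on chromosome 13, a region 32.1 kb from Gm46425 was at 98.0 to 98.8 in EpiLC and in 3 of 3 ES lists, and was a weak peak in 2 FS1 lists at percentiles 3.8 and 4.7. Together with the region at Gm31714, the 6 regions spanned 1.30 Mb, 5 of them in all 3 ES lists and 5 without a deposited FS peak.

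Other regions of this kind lay in Zfp978 (chr4:147275255-147275676), at the start of Gm14124 (chr2:150256998-150257769) and 44.5 kb from 9530057J20Rik, each in 3 of 3 ES lists. A second cluster on chromosome 7 held regions 13.97 kb from Vmn2r62, at Zfp936 and at Gm35588, none of which had a peak in any deposited FS or EpiSC_AFX list. Nearest genes with a Zfp symbol, the mouse prefix of zinc finger proteins, made 6 of the 70 EpiSC-closed regions (8.57%) and 7 of the 111 remaining (6.31%), against 2.41% of all union regions. Those with a Gm number, the prefix of predicted genes, made 10 of the 70 (14.3%), against 3.22% of all regions, but also 37 of the 251 FS-only set effects (14.7%). Both families were picked after the regions were seen, and the 4 regions at Zfp640 count 4 times. These genes occur in repeated families, so reads may map to several copies and the mapping could differ between the sets; its part was not tested. Chromosome 13, also singled out after the values were seen, held 11 of the 111 regions (9.91%), against 4.16% of the union. Of the 11, 6 were the regions within 1.30 Mb at Gm31714, Gm46425 and Zfp640. Its share of whole lists was 3.99% to 4.61% in EpiLC and 3.28% to 3.84% in FS.

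The start windows of Gm14124, Gm14139 and Gm50598 each held the octamer, the letters bound by POU factors such as OCT4. They were 3 of the 55 windows under remaining EpiLC-only regions (5.45%), against 1.74% of all promoters and 1.58% of those under any union region. The windows are not independent: Gm14124 and Gm14139 shared a run of 50 bases that holds the octamer, and each shared a run of 20 with Gm50598. The octamers ended 181, 178 and 192 bases before the start sites. In EpiLC replicates 1 to 4, the Gm50598 region was at percentiles 69.2, 91.9, 10.9 and 96.9, and it was absent from every deposited FS list and in 2 of 3 ES lists. Motifs searched were octamer, SOX, OTX2, ESRRB, GRHL, ZIC, KLF, AP-1 and heat shock, and their shares were not tested. SOX was in 9.09% of the remaining EpiLC-only windows, against 10.9% under any union region. ZIC was in 14.5% of them and in 21.1% of the remaining FS-only windows, against 10.1%. KLF was in 0% and 5.26%, against 3.91%. A match is a description of letters, and the binding of a factor was not measured.

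Other starts among the EpiSC-closed regions, all 4 named here after their values were seen, varied in their ES and FS peaks. Meioc, needed for meiosis, had its start region (chr11:102665251-102665878) at percentiles 44.9, 79.2, 84.2 and 82.4 in EpiLC, in 1 of 3 ES lists and in no deposited FS, EpiSC_AFX or Rd2_AFX list. In the gene or 20 kb around it, 0 of 6 EpiSC_AFX and 1 of 2 Rd2_AFX lists had a peak, a set effect. Rec8, the meiotic cohesin subunit, was at 60.9, 92.7, 8.7 and 82.9 in EpiLC and at 2.7, 26.8 and 14.1 in the 3 FS1 lists, with no peak in the ES lists at equal length. Rbmxl2, a testis RNA-binding protein gene, was at 35.8 to 93.0 in EpiLC, in no deposited FS list, and in 3 of 3 ES lists. The start of Kcnq1ot1, an imprinted non-coding RNA that begins inside Kcnq1, was at 85.1, 81.5, 27.3 and 93.5 in EpiLC, in no deposited FS list, in 3 of 6 deposited EpiSC_AFX lists and in 3 of 3 ES lists. EpiLC replicate 3, the shortest list, gave the lowest percentile for Rec8, Rbmxl2 and Kcnq1ot1. Transcription factor genes nearest to regions of the class, also named after their values were seen, included Sox11, Sall1, Six4, Nfib, Runx1, Irf8 and Foxr2. The share of meiotic or transcription factor genes over all union regions was not counted. The region at the start of Sox11 was a peak below the cut in 4 of 6 FS lists, while that 8.59 kb from Sall1 was in none.

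The 6 EpiSC-open EpiLC-only regions were at Cpox (a haem synthesis enzyme), Col11a1 (type XI collagen), Lrp1b, Hhla1, Cdk13 (a cyclin-dependent kinase) and Gse1, and all had a peak in at least 1 ES list. The region at Cpox was kept in 1 of 7 other settings, the merging of peaks up to 200 bp apart. Col11a1 differed from the others in the full lists, as no deposited FS list held its start region (chr3:114030307-114030640), while 6 of 6 EpiSC_AFX, 2 of 2 Rd2_AFX and 3 of 3 ES lists did. Its percentiles in EpiLC were 45.3, 97.1, 54.0 and 98.6. The other 5 had peaks below the cut in 3 to 6 of the deposited FS lists, not always at lower percentiles than in EpiLC. At Cdk13 the percentiles were 60.8, 66.4 and 75.4 in FS1, 43.7 and 32.4 in 2 FS2 lists, and 34.8 to 78.4 in EpiLC. Mysm1, which encodes a histone H2A deubiquitinase, was the last of the 8 leading EpiSC-closed regions and the one among them without an ES peak.

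ES lists, which took no part in the choice, were read beside both directions. At least 1 of 3 ES lists held a peak at 64 (57.7%) of the 111 remaining EpiLC-only regions, and at 27 (24.3%) in all 3. For the 84 remaining FS-only regions the counts were 37 (44.0%) in at least 1 list and 15 (17.9%) in all 3. Over all union regions the shares were 41.3% and 15.4%. That background is no close match, as it includes 3558 regions held by 1 EpiLC list alone and 3572 by 1 FS list alone. Among regions held by all 10 lists the shares were 95.6% and 71.5%. Among the FS-only set effects, the share with an ES peak was 88.0%, and the ES lists used are of the same set as FS. In position, 29 of 82 placed FS-only regions (35.4%) and 46 of 109 placed EpiLC-only regions (42.2%) that remained lay within 1 kb of a start site, against 45.3% of all regions.

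**Figure D3:**
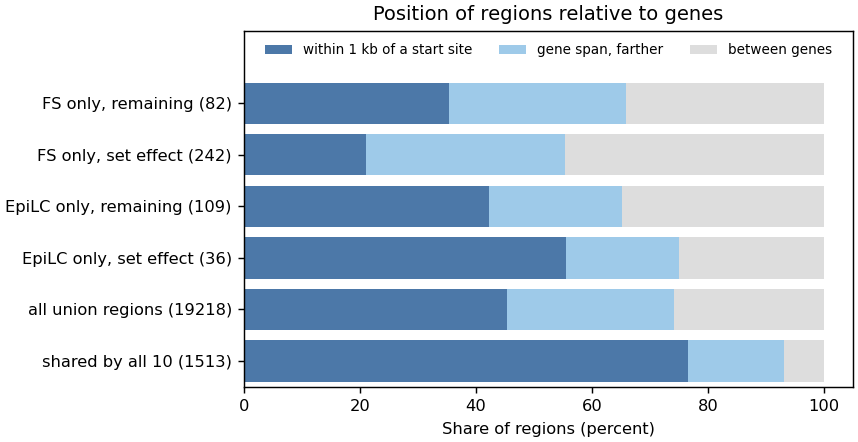
Share of regions (percent) within 1 kb of a start site, elsewhere in a gene span, or between genes, with the number of placed regions in brackets (chromosome 18 starts were not used). FS-only set effects have the lowest share at start sites, 21.1%, and regions shared by all 10 lists the highest, 76.7%.

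No gene of the pluripotency and pathway lists separated FS from EpiLC. The 13 lists held 159 entries, some genes standing in more than 1 list, and the measure was a peak in the gene or 20 kb around it at equal list length. Over 15312 genes with such a peak in any list, 152 (0.993%) were in 6 of 6 FS and 0 of 4 EpiLC lists and 88 (0.575%) the reverse. After set-effect marking 61 (0.398%) and 55 (0.359%) remained. In each of the 13 lists all these counts were 0. With shares this low over all genes, 0 among 159 entries is near the background and says little about these genes. Of single regions near list genes, one 7.05 kb from Col1a1, a fibroblast marker, was FS-only and a set effect, and the start of Cldn7, a tight junction claudin, was EpiLC-only and mixed. Cldn7 was at percentiles 31.2, 83.0, 70.9 and 75.2 in EpiLC, and was a weaker peak in 1 FS1 and 1 FS2 list at 15.1 and 32.0. It was kept in 1 of 7 other settings, the merging of peaks up to 200 bp apart.

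The marker lists were read against the labels. Peaks around 14 formative genes numbered 7 to 14 (median 9.5) in FS lists, 7 to 16 (median 12.5) in EpiLC and 1 to 7 in ES. Around 14 naive genes there were 3 to 6 (median 5) in FS, 4 to 8 (median 7.5) in EpiLC and 9 to 10 in ES. Of the 14 formative genes, 5 had a higher share of FS lists and 7 a higher share of EpiLC lists, and of the 14 naive genes 3 and 8. FS and EpiLC overlapped in both lists, whereas ES lay above both for naive genes. Zfp42, a naive marker, had a peak in 0 of 6 FS, 2 of 4 EpiLC and 3 of 3 ES lists. Formative genes went both ways, as Fgf5, a growth factor gene, had one in 4 of 6 FS and 4 of 4 EpiLC lists, and Dnmt3a, a DNA methyltransferase gene, in 6 of 6 FS and 2 of 4 EpiLC lists. Peaks around 8 fibroblast genes numbered 2 to 5 in FS and 1 to 4 in EpiLC, those around 5 primitive endoderm genes 0 to 4 and 1 to 2, and those around 5 trophoblast genes 1 to 3 and 1 to 2.

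Among pathway lists the retinoic acid list and the cadherin and epithelial list leaned to opposite sides. Of the 14 retinoic acid genes with a peak in any list (of 17), 10 had a higher share of FS lists and 3 a higher share of EpiLC lists, against 35.5% and 38.9% of all genes with a peak. Rara, the retinoic acid receptor alpha gene, had a peak in 6 of 6 FS, 3 of 4 EpiLC, 6 of 6 EpiSC_AFX and 1 of 2 Rd2_AFX lists. Rarb, its beta counterpart, had one in 5 of 6 FS, 1 of 4 EpiLC, 2 of 6 EpiSC_AFX and 0 of 2 Rd2_AFX lists, and so the first set held the higher share in EpiSCs as well. Of the 9 cadherin and epithelial genes with a peak (of 12), 1 had a higher FS share and 7 a higher EpiLC share. This list also holds Cdh2, Vim, Zeb1 and Zeb2, which are not epithelial markers. Vim was among the 7, with 1 of 6 FS and 2 of 4 EpiLC lists, and Zeb1 was the 1 leaning to FS. Epcam, an epithelial adhesion molecule, had a peak in 1 of 6 FS, 3 of 4 EpiLC, 5 of 6 EpiSC_AFX and 2 of 2 Rd2_AFX lists. For FGF/ERK, 4 of 16 genes with a peak leaned to FS and 8 to EpiLC. The counts were 4 and 5 of 15 for NODAL/activin, 6 and 9 of 17 for WNT, and 2 and 3 of 8 for DNA methylation. Peaks around the 12 genes of the cadherin and epithelial list numbered 3 to 9 in FS and 8 to 13 in EpiLC lists. They numbered 5 to 8 in EpiSC_AFX and 10 to 11 in Rd2_AFX lists, so the Rd2 set held more in EpiSCs as well. For the 17 retinoic acid genes the numbers were 6 to 9, 4 to 7, 3 to 6 and 4 to 8. Of these genes, Rxra, Rxrg, Crabp1 and Aldh1a2 each leaned to FS by 1 FS2 list alone. No test was made over a list.

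Over whole lists, FS libraries resembled EpiLC no more than EpiSC libraries did. The likeness of a library was its mean Jaccard index in base pairs (shared over joint length) with EpiLC lists minus that with Rd2_AFX lists. It was −0.00460, −0.00630 and −0.000898 in FS1, −0.0407, −0.0421 and −0.0336 in FS2, −0.0327, −0.0294 and −0.0194 in EpiSC_AFX1 and 0.00763, 0.0110 and 0.0109 in EpiSC_AFX2. The lines of a cell type lay apart, and FS and EpiSC_AFX overlapped. Means were −0.0214 ± 0.0194 (SD, n = 6) for FS and −0.00867 ± 0.0208 (SD, n = 6) for EpiSC_AFX, apart by −0.0127 (two-sided exact permutation p = 0.297, adjusted p = 0.297 over 2 comparisons). The mean index was 0.288 between FS and EpiLC lists, 0.310 between FS and Rd2_AFX, 0.334 between EpiSC_AFX and EpiLC and 0.343 between EpiSC_AFX and Rd2_AFX. Seen from the Rd2 set, the same double difference had an exact permutation p of 0.267 (adjusted p = 0.297), where 4 against 2 libraries cannot go below 0.0667.

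**Figure D4:**
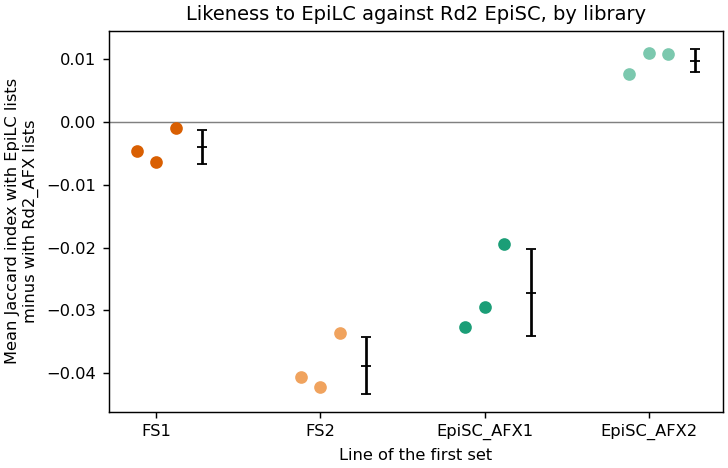
Likeness of each first-set library (points) to EpiLC against Rd2_AFX, as a difference of mean Jaccard indices, by line, with the mean and SD of each line (n = 3) beside it. FS1 and EpiSC_AFX2 lie near or above 0, and FS2 and EpiSC_AFX1 below.

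Of 4 measures of whole lists, 0 passed the adjusted threshold. The share of peaks within 1 kb of a gene end was 58.9% ± 3.53 (SD, n = 6) for the FS lists against 61.9% ± 3.54 (SD, n = 4) for EpiLC (two-sided exact permutation p = 0.19, adjusted p = 0.762). FS1 lists held 61.5% to 62.4% and FS2 lists 54.2% to 57.0%, and the EpiLC lists 63.7%, 62.7%, 64.5% and 56.7%. Peaks more than 50 kb from every protein-coding gene made 5.81% ± 0.642 (SD, n = 6) for FS against 5.6% ± 1.86 (SD, n = 4) for EpiLC (exact permutation p = 0.795, adjusted p = 0.795). The log2 number of deposited peaks was 14.19 ± 0.60 (SD, n = 6) for FS against 13.86 ± 0.88 (SD, n = 4) for EpiLC (exact permutation p = 0.457, adjusted p = 0.795).

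The covered length was 2878 ± 498 kb (SD, n = 6) for FS against 2982 ± 556 kb (SD, n = 4) for EpiLC (exact permutation p = 0.624, adjusted p = 0.795). EpiSC_AFX lists covered 3301 ± 239 kb (SD, n = 6) and Rd2_AFX lists 2287 ± 71.8 kb (SD, n = 2). The difference between FS and EpiLC was thus lower than that between the sets in EpiSCs by −1119 kb (exact permutation of labels within sets, p = 0.0341), and this did not pass after adjustment over the 4 measures (adjusted p = 0.136). The adjusted p of the other 3 interactions was 0.481 to 0.846.

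**Figure D5:**
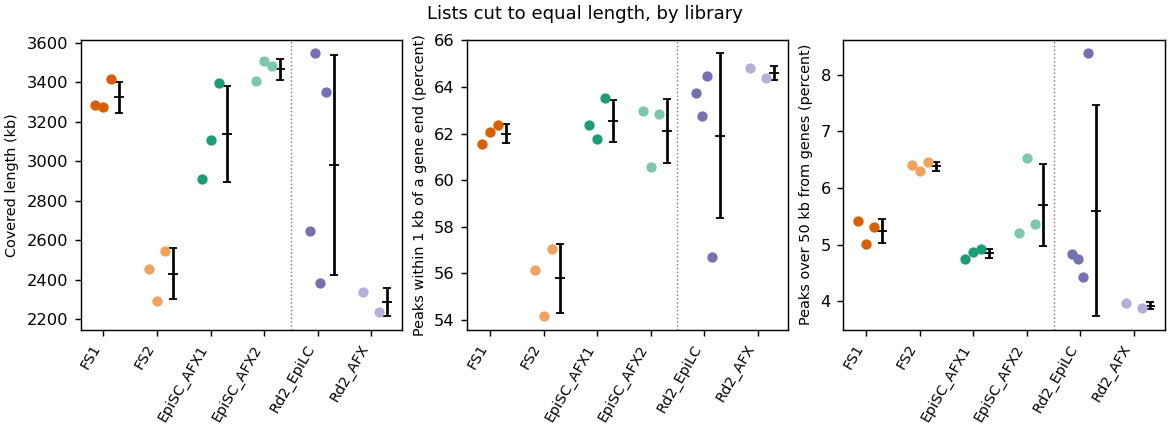
Covered length (kb), share of peaks near gene ends (percent) and share of peaks far from genes (percent) in each list cut to equal length (points), with the mean and SD of the group. The dotted line parts the first set from the Rd2 set; FS2 lies below FS1 in the first 2 panels, and 1 EpiLC library stands at 8.38% in the last.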

How the data were processed

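Peak lists of 21 of the 26 libraries were used; EpiSCs in AF and the short ES lists of the Rd2 set were not. Per the submitters' processing notes, Trim Galore, Bowtie, Picard and MACS2 were used and the build was mm10, with no role or version given. Each library started from 50000 cells. The authors called peaks per library. Each deposited peak carries a fold enrichment (the authors' ratio, relative to what is not given in the sources used here) together with −log10 values of p and q (also the authors'), which served to rank peaks within a list. The lists hold no read counts, so depth is unknown. The shortest peak was 150 bp in the first set and 110 bp in the Rd2 set, and peak names of the first set alone carry a processing tag.

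Groups came from the source labels, and EpiLC replicates are numbered in accession order. Gene positions were those of 21883 protein-coding genes and 32851 promoter windows of RefSeq GRCm38.p6. No windows of chromosome 18 were used. Tests were exact and two-sided, with Benjamini-Hochberg adjustment and a threshold of 0.05, and were tested on simulated data. Regions were named by rank: the 8 with the highest mean percentile of −log10 p per EpiSC class, open or closed, and direction (chromosome Y and unplaced contigs not named), and their nearest genes, genes with 3 or more remaining regions, and list genes with a separated region within 20 kb. Other names were chosen after seeing values, as was the heat shock motif. The members and lists were chosen with earlier results of these data known. Python 3.11.15, numpy 2.4.6, scipy 1.17.1, pandas 2.3.3 and matplotlib 3.10.9 were used.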

Additional observations from a re-analysis of the deposited data

Results flagged for a closer look

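Among lists cut to equal length, EpiLC replicate 4 had 8.38% of its peaks more than 50 kb from every protein-coding gene, while the other 3 EpiLC lists had 4.43% to 4.83%. It was singled out because its gap to the nearest list was 0.898 of the group's whole range. EpiSC_AFX2 replicate 2 had 6.53%, against 4.75% to 5.37% in the other 5 EpiSC_AFX lists, with a gap of 0.654 of the range. These were 2 of 15 groups of values looked at, and chance alone singles out about 1 group in 20. EpiLC replicate 4 also had the lowest share near gene ends of its group, 56.7%, and the most deposited peaks, 26045.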

How the results depend on the processing

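The counts of separated and remaining regions depend on the settings. FS only held 335 regions in the report and 564 with lists as deposited, 718 with separation relaxed (at least 2 of 3 lists of each FS line, or 3 of 4 EpiLC lists), 661 with FS1 alone and 742 with FS2 alone. EpiLC only held 150, and 84 where peaks had to cover 50% of a region, 480 relaxed, 1058 with EpiLC lists joined by the first part of their number, 260 with FS1 and 377 with FS2. Remaining FS-only regions numbered 84, and 46 with the top 5000 peaks, 50 as deposited, 303 relaxed, 268 with FS1, 353 with FS2 and 169 where a set effect had to be 6 of 6 against 0 of 2. Remaining EpiLC-only regions numbered 111, and 72 with the top 5000, 71 at 50% cover, 361 relaxed, 829 joined, 178 with FS1 and 308 with FS2. Without the 2 shortest EpiLC lists (chosen after seeing the data) there were 437 EpiLC-only regions, of which 356 remained, and 135 remaining FS-only regions. The causes were not tested, beyond fewer lists making separation easier.

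Leaving out 1 list in turn gave 353 to 401 FS-only and 167 to 250 EpiLC-only regions, with 82 to 117 and 106 to 182 remaining. The EpiLC-only count moved by over 1.5 times without EpiLC replicate 2 (232, of which 169 remained), replicate 3 (233 and 177) or replicate 4 (250 and 182). The covered length of FS minus EpiLC then ran from −304 to 84.0 kb, the share far from genes from −0.174 to 1.14 percentage points, and the interaction of the gene-end share from −2.47 to 0.214. These 3 changed sign elsewhere too, at 1066 kb as deposited, at −0.567 with peaks ranked by fold enrichment, and at 10.7 (as deposited) and 2.2 (fold rank). Neither the Fisher test nor the interaction per region called a region under any alternative run.

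Of the 84 remaining FS-only regions, 50 were kept when ranked by fold enrichment, 18 with the top 5000 peaks, 10 with lists as deposited and 64 without peaks under 150 bp. Of the 111 EpiLC-only regions 70, 30, 30 and 65 were kept. Where a peak had to cover 50% of a region, 47 FS-only and 34 EpiLC-only regions were kept. Where any difference in the same direction marked a set effect, 62 and 89 were kept. The merging of peaks up to 200 bp apart kept all 84 and all 111, so it parted no region from another. The regions at A430005L14Rik and 3 of the 4 at Zfp640 held in all 7 such settings, whereas those at Hspa1a, Hspb8, Hspa1b, Zfp385a and Nr4a1 held in 3. With a replicate block for the numbers 1 to 3 of the first set, the difference in likeness between FS and EpiSC_AFX stayed at −0.0127 (exact permutation p = 0.333). Same-numbered lists did not deviate together (mean correlation −0.00231, from −0.0158 to 0.0206). Differently numbered lists had a mean of 0.00115, from −0.0225 to 0.0104. No pairing by number was seen, though this cannot exclude a shared culture or batch.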

Other observations

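At Mllt6, a leukaemia translocation partner gene, the region chr11:97661703-97662190, 0.932 kb from the gene, had a peak in 0 of 6 FS and 6 of 6 EpiSC_AFX lists, and in 4 of 4 EpiLC and 0 of 2 Rd2_AFX lists. Of all regions it had the smallest unadjusted exact permutation p of the interaction of cell type and set, 7.22e-05, which is the smallest the test can give, and an adjusted p of 0.895. It stands among the EpiLC-only regions, where its class is mixed, and the EpiSC lists of the first set held it as the EpiLC lists did.

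The share of peaks on the X chromosome was 1.86%, 2.01% and 2.01% in FS1 and 1.04%, 1.02% and 1.04% in FS2. It was 1.69% to 2.37% in EpiLC and 1.79% to 2.36% in EpiSC_AFX. FS2 lay below every list of those groups, while FS1 lay within their range. Of all union regions 1.86% were on that chromosome, beside 0 of the 84 remaining FS-only and 4 of the 111 remaining EpiLC-only regions (3.6%), counts too small to read.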
